A study of Mus musculus with 8 samples.

Results

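The Bcl2 family decides whether mitochondria stay sealed or release the proteins that start apoptosis. The genes described are 9 of its members, the survival genes Bcl2, Bcl2l1 and Mcl1, the pore-forming effectors Bax and Bak1, and the BH3-only death genes Bcl2l11, Bid, Bbc3 and Pmaip1. They were followed through every probe set whose annotation gives 1 of these symbols and no other, which were 27 of the 45037 probe sets tested. The 27 probe sets cover 8 of the 9 genes. No probe set is assigned to Bax in the annotation used, so Bax was not analysed here.

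The arrays measured RNA of bone marrow-derived macrophages (BMDM) of wild-type C57BL/6J mice, grown with L929 cell supernatant as the source of macrophage colony stimulating factor and replated without it on day 7. M1 macrophages (3 arrays) received LPS at 100 ng/ml and IFN-γ at 20 ng/ml, M2 macrophages (2 arrays) received IL-4 at 20 ng/ml, and M0 macrophages (3 arrays) received media alone, all for 24 hours. The 3 conditions thus shared the withdrawal of the L929 supernatant. The labels number the arrays of each condition as biological replicates, and the methods give both independent mice and in vitro replicates without saying which arrays share a mouse, so the p-values measure the spread between arrays. The age and sex of the mice are not given in the sources used here.

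In healthy cells Bcl2, Bcl-xL (the main product of Bcl2l1) and Mcl1 hold Bax and Bak in check on the outer mitochondrial membrane. BH3-only proteins, switched on by stress, loss of growth factors or death receptors, bind into a groove of the survival proteins and free or activate Bax and Bak, which then let out cytochrome c. Macrophages depend on colony stimulating factor signals for survival, and Bcl2l11 is among the genes that rise in many blood cells when such signals are withdrawn.

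Values are RMA intensities on a linear scale, called units, as the authors deposited them. Array medians were 38.9 to 40.4 units, and a probe set near or below them is dim. Within a condition the log2 values of array pairs correlated at 0.994 to 0.997, and between conditions at 0.965 to 0.983. All 8 measured markers of macrophages were above the array median in every condition, with a summed level of 75999 to 77619 units in M1, 53163 to 56861 units in M2 and 78572 to 81228 units in M0 macrophages. Of the markers of other blood and stromal cells, 1 of 4 of T cells, 2 of 4 of B cells, 2 of 5 of neutrophils, 1 of 5 of fibroblasts, 2 of 4 of dendritic cells and 0 of 3, 4 and 2 of NK, mast and erythroid cells were above that median in all conditions. Changes are log2 fold changes from limma with a standard error (SE), and a probe set was called at a Benjamini-Hochberg adjusted p under 0.05 over all 45037 probe sets, whatever its fold. The number of arrays, above all in M2, limits the precision.

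LPS with IFN-γ lowered Bcl2l11, Bcl2l1, Bid and Pmaip1 and raised Bak1, whereas Bcl2, Mcl1 and Bbc3 did not pass at their brightest probe sets. Bcl2l11 moved the most, to 0.37 times its M0 level. Of these calls only that of Bcl2l11 was kept under every setting run and whichever array was left out. Of the 27 probe sets 14 were called in M1 against M0 macrophages, 2 higher and 12 lower, beside 20.4% of all probe sets (10.2% higher and 10.2% lower). Probe sets of the same gene are repeated readings of it. Both higher ones were of Bak1 and 5 of the 12 lower ones of Bcl2l11. By gene, at the brightest probe set, 1 of 8 was higher and 4 were lower, beside 25.2% of all named genes called. The median log2 fold change of the 27 probe sets was -0.32, and that of all probe sets was 0.0070. The 2 higher probe sets became 0 without M0 replicate 2 or M1 replicate 2 (each with 2 at an unadjusted p under 0.05 in limma) and 1 without M0 replicate 1, M0 replicate 3, M1 replicate 1 or M1 replicate 3. The 12 lower probe sets became 7 without M0 replicate 2 or M1 replicate 3. In bulk RNA, a smaller share of cells that express a gene and less of its RNA per cell cannot be told apart.

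At the brightest probe sets IL-4 raised Bcl2 and lowered Pmaip1 and Mcl1, where Mcl1 was called at 4 of its 6 probe sets. Bcl2 reached 2.77 times and Pmaip1 0.32 times the M0 level. In M2 against M0 macrophages 11 of the 27 probe sets were called, 4 higher and 7 lower, beside 12.2% of all probe sets (6.32% higher and 5.85% lower). The median log2 fold change of the 27 was -0.25, and that of all probe sets was 0.0079. All 4 higher probe sets were of Bcl2, and 4 of the 7 lower ones were of Mcl1. By gene, at the brightest probe set, 1 of 8 was higher and 2 were lower, beside 14.5% of all named genes called. The 7 lower probe sets became 4 without M2 replicate 1, a fit in which the other M2 array is taken to vary like the other groups.

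**Figure D1:**
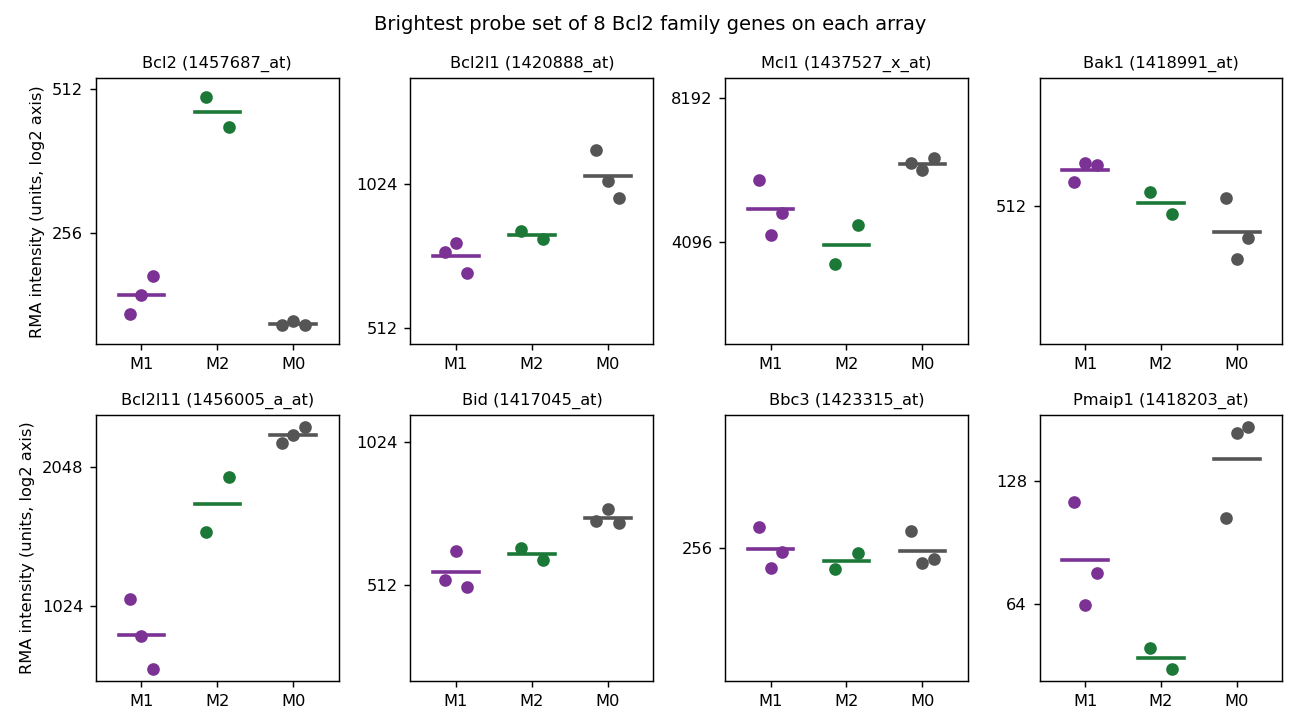
RMA intensity of the brightest probe set of 8 Bcl2 family genes on each array, on a log2 axis whose range differs between panels. Each circle is an array, each line the mean of the log2 values of M1 (purple, 3 arrays), M2 (green, 2 arrays) or M0 (gray, 3 arrays) macrophages; the M2 circles of Bcl2, at 493 and 426 units, and the M1 circles of Bcl2l11, from 746 to 1056 units, stand apart from the other conditions.

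Promoter sequence was at hand from RefSeq (GRCm38.p6) for 8 of the 9 genes, in 13 windows. The 250 bases before the start were searched on both strands for 3 motifs, namely the STAT6 site used after IL-4 (TTC and GAA with 4 bases between them), GTAAACA (a FOXO core) and the kappa-B consensus of NF-κB. No member window held the STAT6 motif, which 5.85% of all 32851 windows in the table hold. The FOXO core was in 1 of the 2 windows of Bcl2l11 and 1 of the 3 windows of Bbc3 (3.17% of all windows). The kappa-B consensus was in a window of Bcl2l1 and of Bbc3 (3.90%). The other Bcl2l11 window held no match, and Bbc3 did not pass in M1 or M2 against M0. The windows of Bcl2, which rose with IL-4, and of the start of Bcl2l11 that holds the FOXO core, which fell with LPS and IFN-γ, are shown as the members that changed the most in each direction with a window at hand, with motif matches in capitals. Bcl2 lies at chr1:106714291-106714540 on the minus strand and Bcl2l11 at chr2:128125788-128126037 on the plus strand, and their match is a description of letters, not of binding.
Bcl2: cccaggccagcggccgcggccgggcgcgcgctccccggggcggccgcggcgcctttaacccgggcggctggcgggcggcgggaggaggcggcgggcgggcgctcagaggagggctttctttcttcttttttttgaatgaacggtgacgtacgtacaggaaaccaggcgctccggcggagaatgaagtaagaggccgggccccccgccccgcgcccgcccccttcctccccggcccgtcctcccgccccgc
Bcl2l11: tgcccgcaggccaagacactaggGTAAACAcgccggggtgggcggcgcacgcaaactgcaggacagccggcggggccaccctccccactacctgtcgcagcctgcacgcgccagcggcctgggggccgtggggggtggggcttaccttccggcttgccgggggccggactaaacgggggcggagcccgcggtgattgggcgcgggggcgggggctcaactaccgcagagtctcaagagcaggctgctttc
The match of Bcl2l11 lies at bases -227 to -221 from the start. The Bcl2 window is 74.8% G and C and that of Bcl2l11 is 72%, beside a median of 52.4% over all windows.

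Bcl2, the founding survival gene of the family, rose in M2 macrophages at 4 of its 5 probe sets and passed at none of the 5 in M1 against M0. Its brightest probe set, 1457687_at, read 173, 189 and 208 units in M1, 493 and 426 units in M2, and 164, 168 and 164 units in M0 macrophages. Both M2 arrays were above all others, and each M1 array was slightly above each M0 array. On the log2 scale Bcl2 changed by 1.47 in M2 against M0 (SE 0.12, adjusted p = 4.9e-06), 0.20 in M1 against M0 (SE 0.10, adjusted p = 0.247) and -1.27 in M1 against M2 (SE 0.12, adjusted p = 6.7e-06). In order of level M2 came first, and the difference between M1 and M0 did not pass, with a 95% interval from -0.03 to 0.43. The M2 calls were lost with the methods' t-test on log2 values (adjusted p = 0.0501 against M0 and 0.0542 for M1 against M2).

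The other probe sets of Bcl2 were dimmer. At 1422938_at the level was 106, 93.0 and 87.1 units in M1, 147 and 153 units in M2, and 85.7, 85.5 and 73.3 units in M0 macrophages, a log2 fold change in M2 against M0 of 0.89 (SE 0.12, adjusted p = 4.5e-04). At 1437122_at it was 51.9, 64.8 and 68.5 units in M1, 164 and 125 units in M2, and 67.1, 51.0 and 49.5 units in M0 macrophages, a log2 fold change in M2 of 1.37 (SE 0.17, adjusted p = 2.1e-04). At both, each M2 array again lay above all M1 and M0 arrays. The probe set 1443837_x_at, below the array median in M1 and M0, rose by 0.55 in M2 (adjusted p = 0.0207), a call lost without M2 replicate 1 (0.35, adjusted p = 0.204), M0 replicate 2 (0.51, adjusted p = 0.0796) or M0 replicate 3 (0.52, adjusted p = 0.0654). The 5th probe set, 1440770_at, was below the array median in all conditions, with a log2 fold change of 0.08 in M2 and -0.15 in M1 macrophages.

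Lymphocytes also express Bcl2, and their markers were set beside this rise. The 4 measured T cell markers summed to 103 to 123 units in M2 and 118 to 121 units in M0 macrophages, and the 4 B cell markers to 166 to 169 units in M2 and 177 to 200.1 units in M0. In M2 against M0 the log2 fold changes of the T cell markers Cd3e, Cd3d, Cd3g and Cd2 ran from -0.12 to 0.03. Those of the B cell markers were 0.31 for Cd79a, -0.63 for its partner chain Cd79b, 0.14 for Ms4a1 and -0.02 for Pax5, and none of the 8 was called (lowest adjusted p = 0.109). The part of these cells in the rise was not tested.

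Bcl2l1 encodes Bcl-xL and, by splicing, the shorter Bcl-xS, which promotes death. The probe set 1420888_at was at 737, 770.1 and 668 units in M1, 818 and 784 units in M2, and 1208, 1039 and 959 units in M0 macrophages. Every M0 array was above every stimulated array. The log2 fold change was -0.56 in M1 against M0 (SE 0.11, adjusted p = 0.0030) and -0.41 in M2 against M0 (SE 0.12, adjusted p = 0.0519), which did not pass. The difference between M1 and M2 did not pass (-0.15, 95% interval -0.42 to 0.12). The M2 value passed without M0 replicate 3 or M1 replicate 3 (lowest adjusted p = 0.0452), with an intensity trend and robust variances, a further quantile normalization or dim probes left out (lowest adjusted p = 0.0282), and the M1 call was lost with the methods' t-test on log2 values (adjusted p = 0.0639).

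A second Bcl2l1 probe set, 1420887_a_at, also fell in M1, by 0.42 (adjusted p = 0.0230). That call was lost without M0 replicate 2 (-0.37, adjusted p = 0.108), M0 replicate 3 (-0.42, adjusted p = 0.0652) or M1 replicate 3 (-0.36, adjusted p = 0.0850). Which of the spliced forms each probe set reads was not determined. The remaining probe sets, 1426191_a_at and the very dim 1426050_at, had log2 fold changes of -0.35 and -0.20 in M1 and of -0.37 and -0.23 in M2 macrophages, and did not pass. The value of 1426191_a_at passed in M2 without M2 replicate 1 (-0.60, adjusted p = 0.0388) and in M1 without either M2 array (adjusted p = 0.0434).

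Mcl1, a survival protein with a very short life in the cell, was read by 6 probe sets, which did not give the same call. At 1437527_x_at the level was 5516, 4231 and 4704 units in M1, 3671 and 4449 units in M2, and 6003, 5793 and 6133 units in M0 macrophages. All M0 arrays were above all others, while M1 and M2 overlapped. The log2 fold change was -0.56 in M2 against M0 (SE 0.13, adjusted p = 0.0155) and -0.32 in M1 against M0 (SE 0.12, adjusted p = 0.0858), which passed without M1 replicate 1 (-0.42, adjusted p = 0.0339). Without M2 replicate 1 the M2 call was lost (-0.43, adjusted p = 0.148).

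The probe sets 1456243_x_at, 1456381_x_at and 1416880_at fell as well in M2 macrophages, by 0.57, 0.72 and 0.49 on the log2 scale (adjusted p = 0.0060, 0.0032 and 0.0422). Of these, 1456243_x_at lost its call without M2 replicate 1 (-0.49, adjusted p = 0.0646), and 1416880_at lost it with any single M0 or M2 array, or M1 replicate 3, left out (adjusted p up to 0.230). In contrast, 1448503_at was at 4025, 3341 and 3317 units in M1, 2950 and 3121 units in M2, and 3180, 3400 and 3768 units in M0 macrophages, and 1416881_at at 3346, 2719 and 2661 units in M1, 2249 and 2170.5 units in M2, and 2198, 2567 and 3018 units in M0. The log2 fold changes of these last 2 probe sets were -0.18 and -0.22 in M2 and 0.04 and 0.17 in M1 macrophages, and none passed.

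In M1 macrophages 2 of the 6 Mcl1 probe sets fell, 1456243_x_at by 0.36 and 1456381_x_at by 0.39 (adjusted p = 0.0250 and 0.0345). Both calls were lost with any single M0 array, M1 replicate 2 or M1 replicate 3 left out, with log2 fold changes of -0.30 to -0.38 for the first and -0.32 to -0.43 for the second. The M1 value of 1416880_at, -0.27, passed without M1 replicate 1 (-0.40, adjusted p = 0.0395). The suffix _x marks probe sets with probes that also match other sequences, and 3 of the 6 Mcl1 probe sets carry it. No Mcl1 probe set passed between M1 and M2, with log2 differences of 0.21 to 0.39.

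Bak1, a pore-forming effector like Bax, was the effector measured among the 9 genes and rose in M1 macrophages at both of its probe sets. At 1418991_at it was at 572, 627 and 622 units in M1, 548 and 490.4 units in M2, and 531, 395 and 438 units in M0 macrophages. The M1 arrays lay above all others, and M2 and M0 overlapped. The log2 fold change was 0.43 in M1 against M0 (SE 0.12, adjusted p = 0.0232) and 0.20 in M2 against M0 (SE 0.13, adjusted p = 0.423). The dim 1425716_s_at, below the array median in M2 and M0, rose by 0.54 in M1 (SE 0.15, adjusted p = 0.0227). The first call was lost without M0 replicate 2 (0.33), M0 replicate 3 (0.40), M1 replicate 2 (0.40) or M1 replicate 3 (0.41), at adjusted p up to 0.124. The second was lost without M0 replicate 1 (0.51), M0 replicate 2 (0.40), M1 replicate 1 (0.48) or M1 replicate 2 (0.55), at adjusted p up to 0.115. Between M1 and M2 neither probe set passed in limma, with log2 differences of 0.23 at 1418991_at and 0.50 at 1425716_s_at (adjusted p = 0.308 and 0.0596). The difference at 1425716_s_at passed without M0 replicate 2 or M0 replicate 3 (lowest adjusted p = 0.0291) and was 0.68 without M2 replicate 1.

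Bcl2l11 encodes Bim, a BH3-only protein that binds all the survival proteins and can act on Bax and Bak directly. At 1456005_a_at it was at 1056, 880 and 746 units in M1, 1485 and 1955 units in M2, and 2315, 2407 and 2504 units in M0 macrophages. The conditions did not overlap, with M1 lowest, M2 between and M0 highest. Bcl2l11 had a log2 fold change of -1.44 in M1 against M0 (SE 0.14, adjusted p = 1.2e-05) and -0.94 in M1 against M2 (SE 0.16, adjusted p = 8.5e-04). In M2 against M0 the value was -0.50 (SE 0.16, adjusted p = 0.0594), so the difference between these neighbors did not pass, although it did without M1 replicate 1, M1 replicate 3 or M2 replicate 2 (lowest adjusted p = 0.0377). It also passed with only the groups compared, with an intensity trend and robust variances and with dim probes left out (lowest adjusted p = 0.0345), and was -0.30 without M2 replicate 1.

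The other 4 Bcl2l11 probe sets fell in M1 as well. The values of 1435448_at were 772, 739 and 662 units in M1, 1120 and 1498 units in M2, and 1737, 1931 and 1966 units in M0 macrophages, with log2 fold changes of -1.38 in M1 and -0.53 in M2 (adjusted p = 6.4e-06 and 0.0241). The fall in M2 was lost without M2 replicate 1 (-0.32, adjusted p = 0.229), M0 replicate 2 (-0.51, adjusted p = 0.0804) or M0 replicate 3 (-0.50, adjusted p = 0.0750). In M2 the remaining 3 probe sets did not pass, but 1426334_a_at did without M0 replicate 1 (-0.83, adjusted p = 0.0439), 1435449_at without M0 replicate 1 or M1 replicate 1 (-0.69 and -0.55) and 1456006_at without M1 replicate 1 (-0.44). In M1 the log2 fold changes were -1.35 at 1435449_at, -1.31 at 1456006_at and -1.07 at 1426334_a_at. Across the 5 probe sets the fall was 2.10-fold to 2.72-fold, on each of which every M1 array was below every M0 array. The fall in M1 was called at all 5 probe sets whichever of the 8 arrays was left out, and at 1456005_a_at also with the methods' t-test on log2 values (adjusted p = 0.0177). Between M1 and M2, 4 of the 5 passed, of which 1435449_at (-0.80, adjusted p = 0.0080) did not without M2 replicate 2 (-0.63, adjusted p = 0.0977). The call of 1456005_a_at between M1 and M2 was lost with that t-test (adjusted p = 0.176).

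**Figure D2:**
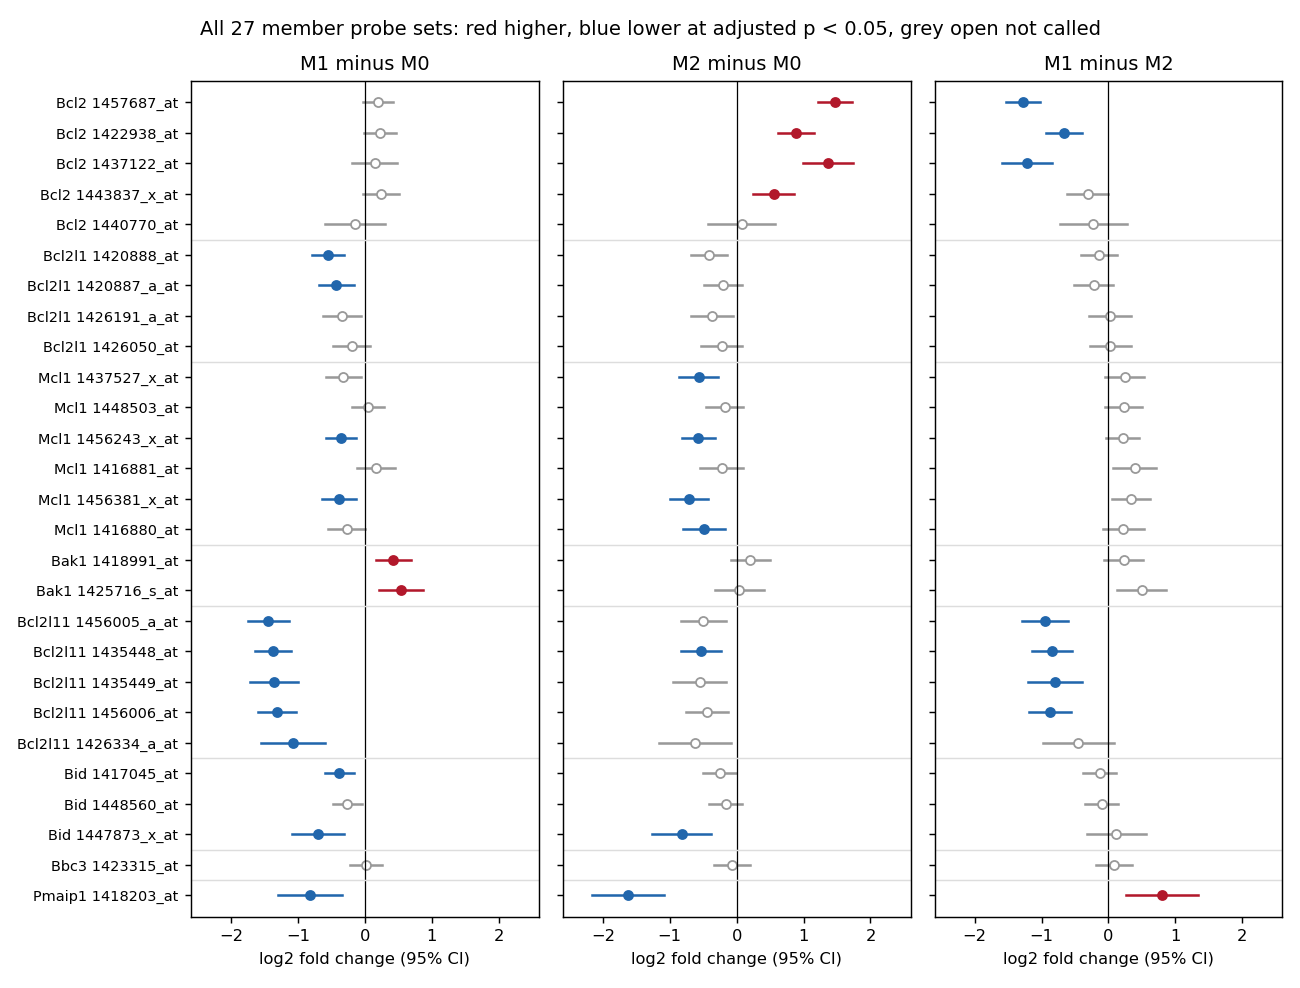
Log2 fold change with its 95% confidence interval from limma for all 27 member probe sets in M1 minus M0 (left), M2 minus M0 (middle) and M1 minus M2 (right). Red and blue filled circles were called higher or lower and gray open circles were not called; all 5 Bcl2l11 probe sets are blue on the left and 4 of the 5 Bcl2 probe sets are red in the middle.

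Bid is cleaved by caspase-8 and so ties death receptors to mitochondria. At 1417045_at it was at 527, 606 and 509 units in M1, 615 and 579 units in M2, and 699.7, 740.1 and 694 units in M0 macrophages. Both stimulated conditions lay below all M0 arrays and overlapped with each other. The log2 fold change was -0.38 in M1 (SE 0.10, adjusted p = 0.0173) and -0.25 in M2 (SE 0.11, adjusted p = 0.197). The M1 call was lost without M1 replicate 1 (-0.36), M1 replicate 3 (-0.33) or M0 replicate 2 (-0.35), at adjusted p up to 0.0805. The probe set 1448560_at had log2 fold changes of -0.26 in M1 and -0.16 in M2 and did not pass, but its M1 value did without M1 replicate 2 (-0.34, adjusted p = 0.0371). The dim 1447873_x_at, below the array median in M1 and M2, fell by 0.70 in M1 and by 0.82 in M2 (adjusted p = 0.0137 and 0.0179), calls lost without M0 replicate 1 in M1 (-0.64, adjusted p = 0.0524) and in M2 without M2 replicate 2 (-0.65), M0 replicate 1 (-0.76) or M0 replicate 3 (-0.78), at adjusted p up to 0.163.

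Bbc3 and Pmaip1 encode Puma and Noxa, BH3-only proteins known as targets of p53, of which Noxa binds Mcl1 above all. Bbc3 was at 283, 233 and 251 units in M1, 232 and 251 units in M2, and 278, 238 and 243 units in M0 macrophages, so that all conditions overlapped. Its log2 fold change was 0.01 in M1 (95% interval -0.22 to 0.25, adjusted p = 0.954) and -0.07 in M2 (95% interval -0.33 to 0.20, adjusted p = 0.820).

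Pmaip1 was at 114, 63.5 and 75.9 units in M1, 49.9 and 44.3 units in M2, and 104, 169 and 174 units in M0 macrophages. The M2 arrays were below all others, and M1 replicate 1 was above M0 replicate 1. The log2 fold change was -1.62 in M2 against M0 (SE 0.25, adjusted p = 8.9e-04), -0.82 in M1 against M0 (SE 0.22, adjusted p = 0.0181) and 0.80 in M1 against M2 (SE 0.25, adjusted p = 0.0396). The order of levels was thus M0, M1 and M2. The fall in M2 was called whichever array was left out but was lost with the methods' t-test on log2 values (adjusted p = 0.142). It was also lost with a lower limit of 64 units (-1.18, adjusted p = 0.167), which is above both M2 values. That limit, set on every probe set before the fit, also removed the calls of Mcl1 in M2 and Bak1 in M1. Their values at the brightest probe sets all lay above 64 units, and the cause of these losses was not tested. The fall of Pmaip1 in M1 was lost without M0 replicate 2 (-0.72), M0 replicate 3 (-0.69), M1 replicate 2 (-0.64) or M1 replicate 3 (-0.77), at adjusted p up to 0.0813. That t-test and the limit of 64 units removed the M1 call too (adjusted p up to 0.242). Both also removed the call between M1 and M2. So did the replicate number as a block and an intensity trend with robust variances (adjusted p up to 0.392 over these settings). The difference between M1 and M2 was lost without M1 replicate 1 (0.56), M1 replicate 3 (0.85), M2 replicate 1 (0.89) or M2 replicate 2 (0.71), at adjusted p up to 0.195.

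Set directly against each other, M1 and M2 macrophages differed at 8 of the 27 probe sets, beside 19.0% of all probe sets (8.87% higher and 10.1% lower in M1). Of these, 7 were lower in M1, 3 of Bcl2 and 4 of Bcl2l11, and the Pmaip1 probe set was higher. The count of 1 higher probe set became 0 without M1 replicate 1 or M1 replicate 3 (with 2 and 4 at an unadjusted p under 0.05 in limma). It became 2 without M0 replicate 2 or M0 replicate 3, where Bak1 at 1425716_s_at passed beside Pmaip1. Pmaip1 also lost its call without M2 replicate 1 (0.89) or M2 replicate 2 (0.71). The comparisons with M0 share the M0 arrays, and the values of the members in M1 and M2 stand side by side above for that reason, with M1 against M2 as the test of the difference.

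The genes whose pattern over the 8 arrays was most like these members were looked up among 11497 genes with a mean log2 level above the median of all probe sets, for the 3 members that changed at least 2-fold. For Bcl2 they were Edn1, which encodes the vessel-constricting peptide endothelin, the pseudouridine synthase Pus7 and the mitochondrial protease Pitrm1 (Pearson r 0.997, 0.994 and 0.992). Edn1 averaged 52.0 units in M1, 513 units in M2 and 36.1 units in M0 macrophages. For Bcl2l11 they were Cd68, a glycoprotein of macrophage lysosomes, Cfap126 and the late endosome GTPase Rab7 (r 0.992, 0.983 and 0.982), where Cd68 averaged 9192 units in M1, 12381 units in M2 and 15149 units in M0. For Pmaip1 they were the stress protein gene Sesn3, the Integrator-related Ints6l and the microtubule nucleation gene Tubgcp4 (r 0.988, 0.957 and 0.953), where Sesn3 averaged 64.3 units in M1, 43.3 units in M2 and 111.7 units in M0. These points share arrays and conditions and describe likeness only.

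Other members of the family were read from the brightest probe set of each gene, for which 25.2% of the 18193 named genes were called in M1 (13.7% higher and 11.5% lower) and 14.5% in M2 macrophages (8.03% higher and 6.43% lower). Among the further survival genes 2 of 6 were measured. Bcl2l2, which encodes Bcl-w, was at 348, 349 and 328 units in M1, 247 and 233 units in M2, and 238, 237 and 268 units in M0 macrophages, a rise of 0.47 in M1 (SE 0.10, adjusted p = 0.0040), with a log2 fold change of -0.04 in M2. Bcl2l10 was below the array median throughout and did not pass. Another 3 probe sets carry the symbols of several Bcl2a1 copies at once and were assigned to no gene.

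Of 6 measured effector and BH3-only relatives, Bmf fell in both conditions. Bmf, a BH3-only protein held at the cytoskeleton until it is released, was at 58.7, 54.7 and 59.4 units in M1, 40.2 and 39.2 units in M2, and 121, 114 and 124 units in M0 macrophages. No condition overlapped another, in the same order as for Pmaip1. Both M2 values were near the array medians, so Bmf was dim in M2 macrophages. Its log2 fold change was -1.06 in M1 (SE 0.09, adjusted p = 5.7e-06) and -1.59 in M2 against M0 (SE 0.10, adjusted p = 9.6e-07), and 0.54 in M1 against M2 (SE 0.10, adjusted p = 0.0027). Bnip3 marks mitochondria for removal and rises in hypoxia. It was at 2175, 1398 and 1972 units in M1, 597 and 921 units in M2, and 732, 811 and 938 units in M0. Its rise in M1 was 1.14 (SE 0.19, adjusted p = 7.2e-04). That rise and the call of Bmf between M1 and M2 were lost with the limit of 64 units. The t-test named in the methods, on either scale, removed both calls too. All M1 and M2 values of Bmf lay below 64 units and all values of Bnip3 above it. The cause of these losses was not tested. Bok, Bad, Bik and Hrk did not pass, with log2 fold changes of -0.23 to 0.13 in M1 and of -0.36 to 0.08 in M2 macrophages. The medians of the 6 were -0.12 in M1 and -0.16 in M2.

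**Figure D3:**
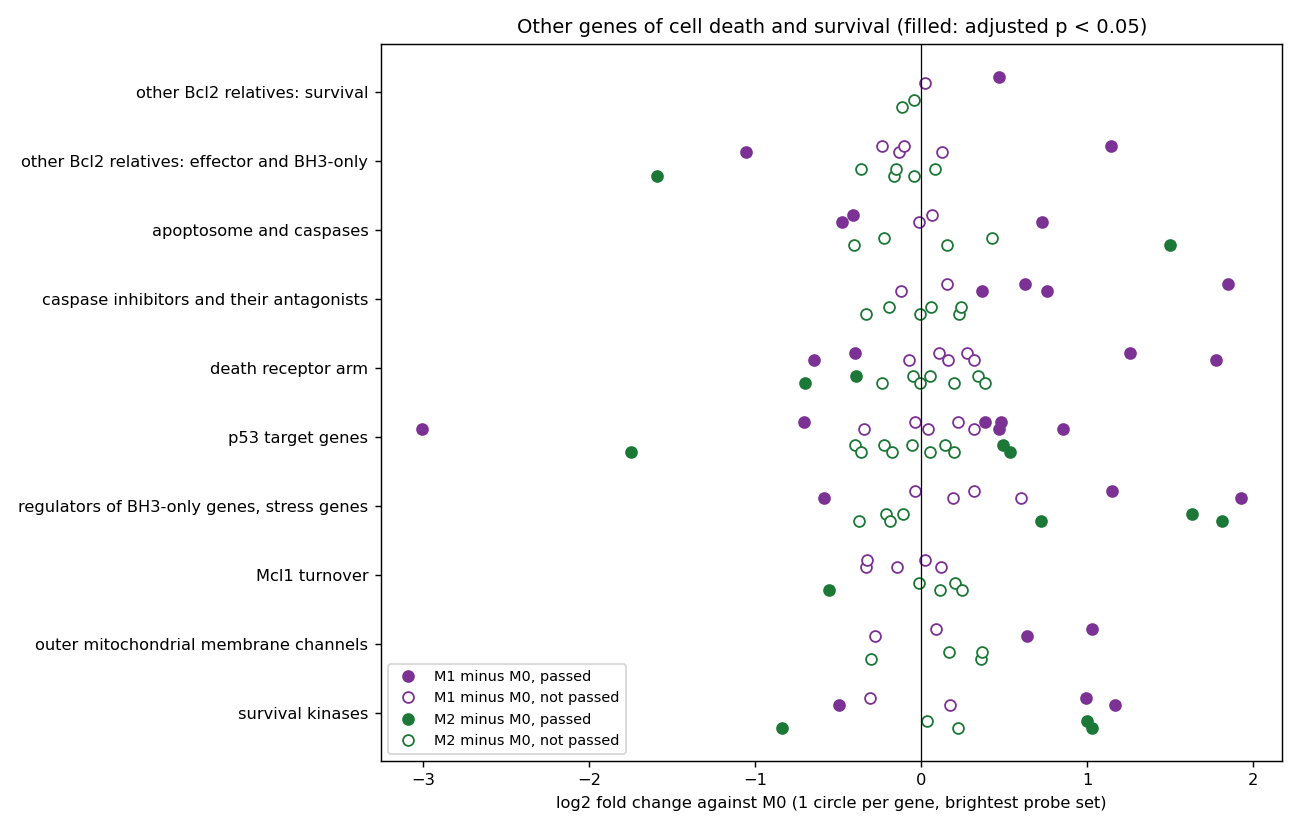
Changes against M0, on the log2 scale, for the measured genes of 10 lists of other survival and death genes, in M1 (purple) and M2 (green) macrophages, with 1 circle per gene at its brightest probe set. Filled circles passed at an adjusted p under 0.05 in limma; in the list of caspase inhibitors and their antagonists 4 of 6 circles of M1 are filled, all above 0, and in M2 no circle of it is.

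Downstream of the mitochondria, 5 of 7 genes of the apoptosome and its caspases were measured. Cycs, which encodes cytochrome c, rose by 0.73 in M1 macrophages (adjusted p = 4.6e-04). Casp6, an executioner caspase, was at 323, 331 and 266 units in M1, 1175 and 1120 units in M2, and 396, 414 and 406 units in M0 macrophages. It rose by 1.50 in M2 (SE 0.12, adjusted p = 4.6e-06) and fell by 0.41 in M1 (SE 0.11, adjusted p = 0.0156), a fall lost without M0 replicate 2 (-0.39, adjusted p = 0.0651) or M1 replicate 3 (-0.31, adjusted p = 0.0568). Casp2, an initiator caspase, fell by 0.47 in M1 (adjusted p = 0.0168), a call lost without M0 replicate 2 (-0.44), M0 replicate 3 (-0.39) or M1 replicate 1 (-0.44). In M1 1 gene rose, 2 fell and 2 did not pass, and in M2 1 rose and 4 did not pass. Beside this list and those that follow, 25.2% of all named genes were called in M1 and 14.5% in M2. The medians of the list were -0.02 in M1 and 0.16 in M2, beside 0.02 and 0.01 over all named genes.

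Of the 6 inhibitors of caspases and their antagonists 4 rose in M1 macrophages and 2 did not pass, beside 13.7% of all named genes higher. The median log2 fold change of the 6 was 0.50. Birc3, the inducible inhibitor cIAP2, was at 1667, 1501 and 1692 units in M1, 423 and 657 units in M2, and 448, 434 and 470.1 units in M0 macrophages, a rise of 1.84 in M1 (SE 0.14, adjusted p = 1.9e-06). Birc2, or cIAP1, rose by 0.62 (adjusted p = 4.4e-04). The antagonists Htra2 and Diablo, which mitochondria release, rose by 0.76 and 0.37 (adjusted p = 0.0012 and 0.0179), and Diablo lost its call with any single M0 array or M1 replicate 2 left out (0.30 to 0.39). In M2 macrophages none of the 6 passed in limma, with 2 at an unadjusted p under 0.05, a median of 0.03 and none with the methods' t-test.

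The death receptor arm had 9 measured genes, of which 2 rose, 2 fell and 5 did not pass in M1 macrophages, while 2 fell and 7 did not pass in M2, with medians of 0.16 and -0.01. Cflar, which encodes c-FLIP and blocks caspase-8, was at 1576, 1339 and 1357 units in M1, 243 and 267 units in M2, and 429, 398 and 417 units in M0 macrophages. It rose by 1.78 in M1 (SE 0.10, adjusted p = 1.7e-07) and fell by 0.70 in M2 (SE 0.11, adjusted p = 0.0015), and M1 exceeded M2 by 2.48 (adjusted p = 1.7e-08). Fas, the receptor itself, rose by 1.26 in M1 (adjusted p = 2.2e-04). Ripk3, the kinase of necroptosis, was at 173, 249 and 191 units in M1, 414 and 408 units in M2, and 311, 335 and 299.9 units in M0 macrophages, a fall of 0.64 in M1 (adjusted p = 0.0032). Tnfrsf1a, a receptor of TNF, fell by 0.40 in M1 and by 0.39 in M2 (adjusted p = 0.0084 and 0.0288), the M2 call lost with any single M0 or M2 array left out (-0.33 to -0.46).

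Targets of p53 and then regulators of the BH3-only genes were read next. Trp53, which encodes p53 itself, had no probe set assigned to it alone and was not read. Of 11 measured p53 target genes 4 rose, 2 fell and 5 did not pass in M1, while M2 macrophages had 2 that rose, 1 that fell and 8 that did not pass, with medians of 0.22 and -0.06. Sesn1, a stress gene that p53 and FOXO factors control, was at 266, 395 and 349 units in M1, 898 and 702 units in M2, and 1983, 3039 and 3147 units in M0, and fell by 3.01 in M1 (adjusted p = 3.5e-07) and by 1.75 in M2 (adjusted p = 1.6e-04). Mdm2, which marks p53 for degradation, rose by 0.85 in M1 (adjusted p = 3.9e-04). Sesn2, a relative of Sesn1, rose by 0.48 in M1 and by 0.54 in M2 (adjusted p = 0.0043 and 0.0078), the M2 call lost without M2 replicate 2 (0.47, adjusted p = 0.0691). Zmat3, which encodes an RNA-binding protein, fell by 0.71 in M1 (adjusted p = 0.0122), a call lost without M1 replicate 2 (-0.58), M1 replicate 3 (-0.62) or M0 replicate 3 (-0.60).

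Among 7 transcription factors and stress genes, 2 rose, 1 fell and 4 did not pass in M1, and 3 rose and 4 did not pass in M2 macrophages, with medians of 0.32 and -0.11. Foxo3, a factor known to switch on Bcl2l11 when growth factors are withdrawn, was at 611, 530.2 and 587 units in M1, 651 and 679.6 units in M2, and 701, 908 and 1004 units in M0, a fall of 0.58 in M1 (SE 0.13, adjusted p = 0.0065), with -0.37 in M2 (adjusted p = 0.135), which passed without M0 replicate 1 (-0.52, adjusted p = 0.0240). Ddit3, or CHOP, the factor of the unfolded protein response, rose by 1.15 in M1 and by 0.72 in M2 (adjusted p = 7.4e-05 and 0.0091), the M2 call lost without M2 replicate 1 (0.63, adjusted p = 0.0899). Trib3 and Chac1, stress genes switched on in that response, are not transcription factors. Trib3 rose by 1.93 in M1 and by 1.81 in M2 (adjusted p = 8.7e-05 and 6.9e-04), and Chac1 rose by 1.63 in M2 (adjusted p = 5.1e-04).

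Of 5 measured genes that set the life of the Mcl1 protein, the mitochondrial ubiquitin ligase Marchf5 fell in M2, by 0.55 (adjusted p = 0.0039), and the other 4 did not pass. The medians were -0.14 in M1 and 0.12 in M2. In M1 macrophages none of the 5 passed in limma, with 2 at an unadjusted p under 0.05. Of the 4 channels and receptors of the outer membrane Tspo and Vdac3 rose in M1, by 1.03 and 0.64 (adjusted p = 1.2e-04 and 6.9e-04), and in M2 the 4 genes did not pass in limma, with 2 at an unadjusted p under 0.05, and the medians were 0.37 and 0.26. Of the 5 measured survival kinases 2 rose, 1 fell and 2 did not pass in each condition, with medians of 0.18 in M1 and 0.22 in M2. The survival kinases Pim1 and Pim3, which phosphorylate Bad, rose in both conditions. Pim3 was at 912, 711 and 1009.7 units in M1, 799.8 and 779 units in M2, and 397, 393 and 372 units in M0 macrophages, a rise of 1.16 in M1 and of 1.03 in M2 (adjusted p = 2.8e-05 and 4.0e-04). Pim1 rose by 0.99 in M1 and by 1.00 in M2 (adjusted p = 0.0010 and 0.0042), the M2 call lost without M2 replicate 2 (0.79, adjusted p = 0.0667). Pim2 fell by 0.84 in M2 (adjusted p = 0.0029) and Akt2 fell by 0.49 in M1 (adjusted p = 0.0025).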

How the data were processed

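RNA of 8 Affymetrix Mouse 430 2.0 arrays, 3 M1, 2 M2 and 3 M0, was measured. The authors used the RMA algorithm as GenePattern offers it (Expression File Creator) and deposited the intensity values, on a linear scale, for 45101 probe sets; version and annotation are not given in the sources used here. Log2 was taken and 64 control probes were left out. limma 3.58.1 in R 4.3.3 fitted a mean per condition to all 8 arrays (lmFit, contrasts.fit, eBayes; 5 residual and 6.95 prior degrees of freedom), two-sided, with Benjamini-Hochberg adjustment over 45037 probe sets and calls at an adjusted p under 0.05. The methods name an unpaired t-test, which was an alternative. The annotation gives 1 symbol to 34945 probe sets, several to 932 and does not list 9160. Gene values are those of the brightest probe set. Named were all members, all measured Bcl2 relatives, up to 4 called genes per list with the largest changes, and the 3 genes most like each member that changed 2-fold. Members, lists and rules were chosen with earlier results of these data known. The fit was tested on simulated data. Motifs and figures used Python 3.11.15, pandas 2.3.3 and matplotlib 3.10.9. Alternatives were the replicate number as a block, other groups of arrays, variances, normalizations, limits and thresholds, other probe sets, and each array left out.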

Additional observations from a re-analysis of the deposited data

How the results depend on the processing

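Of the 11 calls at the brightest probe set of a member, 10 were lost under some other setting, 5 without some array, and 1, Bcl2l11 in M1 against M0, under none of those run. The counts of member probe sets were 2 higher and 12 lower in M1 against M0, 4 and 7 in M2 against M0, and 1 and 7 in M1 against M2. With a lower limit of 64 units they became 0 and 6 in M1 against M0, 1 lower in M2 against M0 and 0 higher in M1 against M2. At an adjusted p under 0.01 they were 0 and 6, 3 lower in M2 and 0 higher in M1 against M2. With a 2-fold limit they were 0 and 5, 2 and 1, and 0 and 2. After adjustment the t-test of the methods called 0 and 4, 0 and 0, and 0 and 0 on log2 values and the same on linear values, against 2 and 14, 3 and 11, and 0 and 6 at an unadjusted p under 0.05 on log2 values and 2 and 14, 3 and 11, and 1 and 7 on linear values. At that unadjusted p limma gave 2 and 15, 4 and 14, and 4 and 8. Without dim probes 11 were lower in M2 and 2 higher in M1 against M2. In M1 against M2 the higher count was 2 with only the groups compared and 0 with an intensity trend and robust variances. The cause of these changes was not tested. Leaving out an array gave 0 to 2 higher and 7 to 13 lower in M1 against M0, 3 to 4 higher and 4 to 10 lower in M2 against M0, and 0 to 2 higher in M1 against M2, where 7 were lower each time.

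The replicate number as a block, which no source states to mark a shared mouse, left 0 member probe sets higher in M1 against M2 (3 at an unadjusted p under 0.05) and passed Bcl2l1 in M2, and moved none of the other 5 counts of member probe sets by over 1.5 times. Deviations of arrays with the same number had r of -0.17 to 0.05 in 7 pairs, and those with different numbers -0.15 to 0.19 in 14. Gene values that turned in sign when another probe set stood for the gene or another setting was used were all below the threshold. They were Bcl2 in M1 at 1440770_at (-0.15), Bcl2l1 in M1 against M2 at 1426050_at and 1426191_a_at (0.028 and 0.026), Mcl1 in M1 at 1416881_at and 1448503_at (0.17 and 0.044), Bid in M1 against M2 at 1447873_x_at (0.12), and Bbc3, in M1 with a further quantile normalization (-0.0097) and over the arrays left out in turn (-0.061 to 0.086), and in M2 likewise (-0.12 to 0.0055, the highest without M0 replicate 1). Values of single probe sets below the threshold that turned with an array left out were also Bcl2 at 1440770_at in all 3 comparisons, Bak1 at 1425716_s_at in M2 (-0.14 to 0.23), Bcl2l1 at 1426050_at and 1426191_a_at and Bid at 1447873_x_at in M1 against M2, and Mcl1 at 1448503_at in M1. Dim probe sets near the array median limit the size of a fold.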
